A study of Mus musculus with 2 samples.

Results

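The protocadherins are the largest group of cadherin-related adhesion proteins, and 71 genes of the 22740 in the deposited expression table carry a symbol that starts with Pcdh. They were chosen by symbol alone and sorted into 15 alpha genes (Pcdha, with the joined model Pcdha4-g), 22 beta genes (Pcdhb), 22 gamma genes (Pcdhg) and 12 non-clustered genes (all others). RNA came from the whole uterus of 2 C57BL/6 mice, titled WT in the labels, on day 4 of pregnancy, with 1 poly-A RNA sequencing library per animal. The labels name no allele, treatment or second group, and the animals are named uterus 1 and uterus 2, with no test between groups. Each level is the authors' RPKM, reads scaled to the length of the gene model and to the size of the library, given for both uteri or as mean ± SD (n = 2). The SD describes the spread between these 2 animals.

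Protocadherins hold neighbouring cells together, or keep their processes apart, through repeated extracellular cadherin domains that bind calcium. In the alpha and gamma clusters each gene has its own large first exon, called the variable exon, which encodes the outer part of the protein and is spliced to constant exons shared by the whole cluster. Beta genes consist of a single large exon and lack a constant part. The clusters lie side by side and are best known from neurons, where each cell uses a few of their promoters. The last genes of the alpha and gamma clusters, called C-type, are used more uniformly in neurons. Non-clustered protocadherins are scattered over the genome, and many act in cell sorting and cell movement.

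The deposited values keep their read counts. Among non-protocadherin genes with 1 exon, 344 of 344 values above 0 in uterus 1 and 354 of 354 in uterus 2 were whole numbers of reads, within a tolerance of 0.01, at scaling totals of 3834174 and 4256101 reads. The 4 uterine markers Hoxa10, Esr1, Hoxa11 and Pgr had a median of 92.8 (uterus 1) and 84.7 RPKM (uterus 2). Medians were 816 and 686 RPKM for stroma, 265 and 284 RPKM for smooth muscle, 47.9 and 56.0 RPKM for epithelium, and 31.6 and 28.8 RPKM for endothelium. The 6 neuron markers lay at a median of 0.137 and 0.117 RPKM, with Elavl3 listed at 0 in both uteri, and the 4 Schwann cell markers lay at 0.506 and 0.790 RPKM.

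Of the 71 protocadherins, 49 reached 1 RPKM in both uteri, against 58.4% of all genes in the table, and 5 were listed at 0 in both, against 23.4%. The genes above the threshold were 21 of 22 beta genes, 20 of 22 gamma genes, 8 of 12 non-clustered genes and 0 of 15 alpha genes. The median over all protocadherins was 2.62 ± 0.605 RPKM, and over all genes it was 3.26 ± 0.0405 RPKM. Class medians were 3.91 ± 0.641 RPKM for the non-clustered genes, 3.10 ± 0.295 RPKM for beta, 2.82 ± 0.401 RPKM for gamma and 0.252 ± 0.0166 RPKM for alpha. Alpha lay below the other classes in both uteri. Averaged over the animals, the beta and gamma medians differed by less than the spread between the animals. Beta nevertheless lay above gamma in both uteri, at 3.31 against 3.11 RPKM in uterus 1 and 2.89 against 2.54 RPKM in uterus 2. Whole tissue was measured, so few cells with much RNA and many cells with little cannot be told apart.

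**Figure D1:**
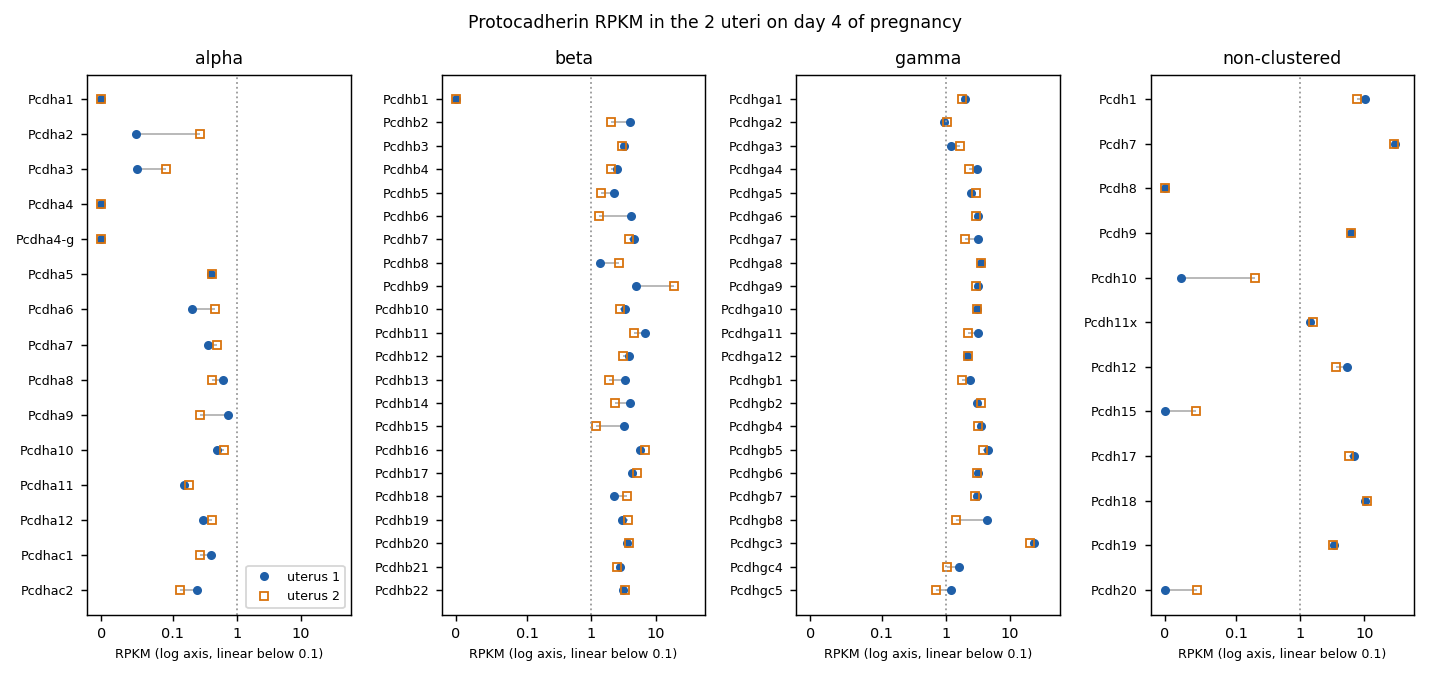
RPKM of each of the 71 protocadherins in uterus 1 (filled circles) and uterus 2 (open squares), 1 panel per class, with clustered genes listed by subfamily and number. The x axis is logarithmic and linear below 0.1 RPKM, and the dotted line marks 1 RPKM. No alpha gene reaches the line, and Pcdh7, Pcdhgc3 and Pcdhb9 reach the highest values.

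The beta cluster was expressed almost as a block. All genes from Pcdhb2 to Pcdhb22 reached 1 RPKM in both uteri, on 12 to 117 reads in uterus 1 and 13 to 253 in uterus 2. Pcdhb1, the first gene of the cluster (NM_053126, chromosome 18, 37424652 to 37427108 on mm9), was listed at 0 in both. A count of 0 allows up to 3 reads, which for Pcdhb1 is 0.318 (uterus 1) and 0.287 RPKM (uterus 2). That limit lies below the lowest value of any other beta gene, 1.18 RPKM for Pcdhb15 in uterus 2.

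Within the beta cluster Pcdhb9 had the highest mean (NM_053134, chromosome 18, 37560509 to 37563563). It lay at 4.95 (uterus 1) and 19.5 RPKM (uterus 2), so its rank rests on uterus 2. In uterus 1 the highest beta gene was Pcdhb11 at 6.78 RPKM, which lay at 4.68 RPKM in uterus 2. By mean, Pcdhb16 came after Pcdhb9, at 5.79 and 6.78 RPKM, followed by Pcdhb11 and by Pcdhb17 at 4.31 and 5.17 RPKM. The next genes by mean formed a narrow band.

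A run of 13 beta genes had means from 2.61 to 4.18 RPKM. In uterus 1 and uterus 2, Pcdhb7 lay at 4.54 and 3.82 RPKM, Pcdhb20 at 3.61 and 3.87 RPKM, Pcdhb12 at 3.87 and 3.10 RPKM, and Pcdhb19 at 2.99 and 3.74 RPKM. Pcdhb22 lay at 3.06 and 3.37 RPKM, Pcdhb14 at 4.02 and 2.32 RPKM, Pcdhb3 at 3.17 and 2.98 RPKM, and Pcdhb10 at 3.30 and 2.81 RPKM. Further members were Pcdhb2 at 4.04 and 2.03 RPKM, Pcdhb18 at 2.23 and 3.64 RPKM, Pcdhb21 at 2.79 and 2.51 RPKM, Pcdhb6 at 4.16 and 1.32 RPKM, and Pcdhb13 at 3.32 and 1.91 RPKM. The lowest expressed beta genes were Pcdhb4 at 2.52 and 2.02 RPKM, Pcdhb15 at 3.17 and 1.18 RPKM, Pcdhb8 at 1.34 and 2.71 RPKM, and Pcdhb5 at 2.29 and 1.40 RPKM. Neighbours in this order mostly differ by less than the gap between the animals, so the order inside the band is not resolved.

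In the gamma cluster a C-type gene stood far above the rest. Pcdhgc3 (NM_033581, chromosome 18, 37966064 to 38001526) lay at 23.4 (uterus 1) and 20.2 RPKM (uterus 2), on 420 and 403 reads. The next gamma gene, Pcdhgb5, lay at 4.61 and 3.84 RPKM, on 80 and 74 reads. Pcdhgc3 was above every other clustered gene in both uteri, with Pcdhb9 just below it in uterus 2. The other C-type genes of the cluster were low, with Pcdhgc4 at 1.61 and 1.03 RPKM and Pcdhgc5 at 1.22 and 0.699 RPKM.

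The means of the 19 other gamma genes ran from 0.978 RPKM for Pcdhga2 to 4.23 RPKM for Pcdhgb5. The 12 A-type genes had a median of 2.66 ± 0.585 RPKM and the 7 B-type genes 3.14 ± 0.0451 RPKM. Pcdhga8 was the highest of the A type at 3.47 and 3.48 RPKM, whereas Pcdhga2 was the lowest at 0.920 and 1.04 RPKM, and Pcdhga3 and Pcdhga1 lay near it at 1.22 and 1.65 RPKM and at 1.95 and 1.76 RPKM. Pcdhga2 was 1 of the 2 gamma genes that missed the threshold, and Pcdhgc5 was the other. Thus the 3 genes at the start of the cluster were the 3 lowest of the A type, a pattern chosen after its values were seen.

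From Pcdhga4 to Pcdhga12 the remaining A-type genes lay between 2.16 and 3.22 RPKM in uterus 1, apart from Pcdhga8. Pcdhga6 lay at 3.22 and 2.90 RPKM, Pcdhga10 at 3.05 and 3.11 RPKM, Pcdhga9 at 3.15 and 2.94 RPKM, and Pcdhga5 at 2.47 and 2.95 RPKM. Pcdhga11 lay at 3.21 and 2.19 RPKM, Pcdhga4 at 3.11 and 2.28 RPKM, Pcdhga7 at 3.13 and 1.97 RPKM, and Pcdhga12 at 2.16 and 2.22 RPKM. Of the B type, Pcdhgb4 lay at 3.55 and 3.15 RPKM, Pcdhgb2 at 3.10 and 3.50 RPKM, Pcdhgb6 at 3.17 and 3.11 RPKM, Pcdhgb7 at 3.11 and 2.80 RPKM, and Pcdhgb1 at 2.38 and 1.78 RPKM. Pcdhgb8 differed most between the animals, at 4.35 (uterus 1) and 1.42 RPKM (uterus 2).

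All alpha genes were low or listed at 0. Their 15 models held 80 reads in uterus 1 and 89 in uterus 2, against 1013 and 1205 for beta and 1452 and 1384 for gamma. Pcdha10 had the highest mean, at 0.498 and 0.628 RPKM on 10 and 14 reads. Pcdha8 lay at 0.597 and 0.403 RPKM, Pcdha9 at 0.732 and 0.264 RPKM, Pcdha7 at 0.350 and 0.496 RPKM, and Pcdha5 at 0.401 and 0.406 RPKM. Pcdha12 lay at 0.298 and 0.402 RPKM, Pcdha6 at 0.199 and 0.448 RPKM, Pcdha11 at 0.149 and 0.179 RPKM, Pcdha2 at 0.0486 and 0.263 RPKM, and Pcdha3 at 0.0499 and 0.0898 RPKM. The C-type genes Pcdhac1 and Pcdhac2 lay at 0.394 and 0.266 RPKM and at 0.241 and 0.130 RPKM, within the range of the other alpha genes. With at most 15 reads per gene and library, most neighbours in this order cannot be told apart at this depth.

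Pcdha1, Pcdha4 and Pcdha4-g were listed at 0 in both uteri. For Pcdha1 and Pcdha4, at the median alpha model length of 5248 bases, 3 reads would be 0.149 (uterus 1) and 0.134 RPKM (uterus 2). Models in this cluster overlap, and the alpha models share their last exons. From the size of 1 read, the authors' alpha models with reads were 5206 to 5422 bases long, which for Pcdha12, Pcdhac1 and Pcdhac2 equals the annotated transcript, 2860 bases of it outside the first exon. The gamma models were 4480 to 5079 bases long, and annotated gamma transcripts have 2116 to 2119 bases outside the first exon. Of the models with reads, 9 of 12 alpha and 14 of 22 gamma lengths were searched for within 10% of the median of their class, which bounds these ranges. Since Pcdha1 and Pcdha4 hold no read at all, either no read lay in the shared alpha exons or such reads were not given to every model that contains them. For gamma, the lowest model held 16 reads in uterus 1 and 14 in uterus 2, so no more than that can be shared reads given to all. How the authors treated reads in shared exons is not given in the sources used here.

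Listed zeros were compared with overlap over the whole table. Of 971 genes whose span overlaps another gene on the same strand, 397 (40.9%) were listed at 0 in both uteri, against 22.6% of the 21769 others. With overlap on either strand the order was the opposite, 18.3% of 3466 overlapping genes against 24.3% of the others, and whether the counting used strand is not given in the sources used here. All 59 clustered protocadherins overlap another gene by this measure, and the 22 beta genes lie inside the span of Pcdha4-g, which runs from 37112395 to 37999854. Of them 4 were listed at 0: the 3 alpha models and Pcdhb1. Pcdh8, which overlaps no other gene, was the remaining member listed at 0. The part of overlap in these zeros was not tested.

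The length in the denominator matters for the comparison between clusters. When reads are divided by the variable exon alone, the median was 5.25 ± 0.683 for gamma and 0.539 ± 0.0419 for alpha, on the scale of RPKM. Beta genes, which have no constant part, stay at 3.10 ± 0.295. On the whole models beta lay above gamma in both uteri, with averages that differed by less than the spread between animals. Per variable exon the order was the opposite in both uteri, with gamma at 5.74 against 3.31 in uterus 1 and 4.77 against 2.89 in uterus 2. Alpha stayed below beta on both scales. The variable-exon scale is right only if no read of the constant exons was counted, and the order of beta and gamma therefore depends on a step of the counting that is not known here.

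**Figure D2:**
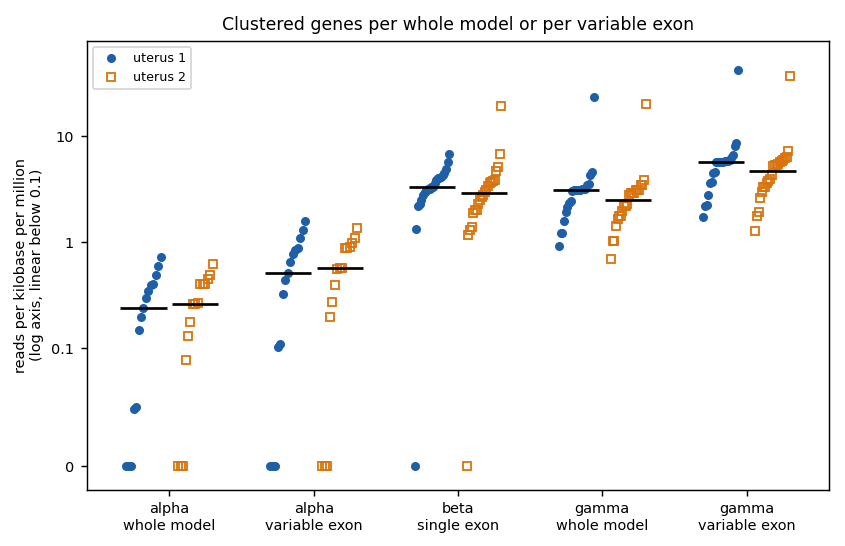
Reads scaled to length and library size, as in RPKM, for each clustered gene in uterus 1 (filled circles) and uterus 2 (open squares), divided by the authors' whole model or by the variable exon alone, with black bars at the class medians (logarithmic y axis, linear below 0.1). The gamma median is close to beta on whole models and above it per variable exon, and alpha is lowest on both.

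Among the non-clustered genes, means ran from 0 to 29.2 RPKM. On whole gene models Pcdh7 was the highest protocadherin, at 29.8 (uterus 1) and 28.7 RPKM (uterus 2) (NM_001122758, chromosome 5, 58109260 to 58523479). It belongs with Pcdh1, Pcdh9 and Pcdh11x to the delta-1 group, which has a longer extracellular part and a tail that binds the phosphatase PP1. Pcdh1, which is known from airway epithelium, lay at 10.4 and 7.53 RPKM, Pcdh9 at 6.15 and 6.11 RPKM, and the X-linked Pcdh11x at 1.40 and 1.55 RPKM. All 4 delta-1 genes were above the threshold in both animals. Per variable exon alone, Pcdhgc3 would lie at 42.7 and 36.9, above Pcdh7, so the order of these genes also depends on how the constant exons were counted.

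The delta-2 group, whose tails recruit the WAVE complex that drives actin branching, was mixed. Pcdh18 lay at 10.3 and 10.8 RPKM, Pcdh17 at 6.86 and 5.73 RPKM and the X-linked Pcdh19 at 3.40 and 3.29 RPKM. Pcdh10 lay at 0.0221 and 0.199 RPKM, and Pcdh8, the papc gene of early mesoderm, was listed at 0 in both. Of the remaining genes, Pcdh12, an endothelial protocadherin, lay at 5.32 and 3.62 RPKM, a log2 ratio of -0.54. Of the 6 endothelial markers, Kdr and Tie1 were also lower in uterus 2, with log2 ratios of -0.46 and -0.29, and the log2 ratios of Pecam1, Cdh5, Emcn and Tek lay between -0.0044 and 0.06. The summed level of the 6 was 193 RPKM in uterus 1 and 186 in uterus 2, and its part in the level of Pcdh12 was not tested. Pcdh15, part of the hair cell tip link of the inner ear, and Pcdh20 lay at 0 in uterus 1 and at 0.0441 and 0.0449 RPKM in uterus 2, which is 1 read each, with the factor between reads and model length taken from annotated transcripts.

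Promoters are shown for Pcdh7 and Pcdh18, the non-clustered genes with the highest means, and for Pcdh10 and Pcdh8, delta-2 relatives of Pcdh18 that lay near 0. RefSeq's promoter table (build GRCm38.p6) held 9 of the 12 non-clustered genes, and the 250 bases before the annotated start are printed 5′ to 3′ on the gene's strand. They belong to Pcdh7 (chr5:57717831-57718080, plus strand), Pcdh18 (chr3:49757317-49757566, minus strand), Pcdh10 (chr3:45378148-45378397, plus strand) and Pcdh8 (chr14:79771313-79771562, minus strand). Capitals mark TATAAA and TGTTCT, searched on both strands (the reverse strand reads TTTATA and AGAACA), as letters of a TATA box and of a steroid receptor element.
Pcdh7: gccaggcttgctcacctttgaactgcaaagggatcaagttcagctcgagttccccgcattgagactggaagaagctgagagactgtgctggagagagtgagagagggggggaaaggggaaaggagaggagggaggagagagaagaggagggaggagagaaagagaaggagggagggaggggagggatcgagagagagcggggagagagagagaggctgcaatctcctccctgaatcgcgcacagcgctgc
Pcdh18: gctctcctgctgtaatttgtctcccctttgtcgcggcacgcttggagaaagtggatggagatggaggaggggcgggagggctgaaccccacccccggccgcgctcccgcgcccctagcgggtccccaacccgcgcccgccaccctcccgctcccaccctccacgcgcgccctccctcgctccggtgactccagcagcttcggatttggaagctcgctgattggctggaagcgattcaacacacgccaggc
Pcdh10: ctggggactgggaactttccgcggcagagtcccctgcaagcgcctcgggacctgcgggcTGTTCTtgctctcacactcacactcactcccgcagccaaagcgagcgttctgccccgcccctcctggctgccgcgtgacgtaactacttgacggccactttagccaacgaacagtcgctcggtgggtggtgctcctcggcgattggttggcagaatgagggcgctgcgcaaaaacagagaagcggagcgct
Pcdh8: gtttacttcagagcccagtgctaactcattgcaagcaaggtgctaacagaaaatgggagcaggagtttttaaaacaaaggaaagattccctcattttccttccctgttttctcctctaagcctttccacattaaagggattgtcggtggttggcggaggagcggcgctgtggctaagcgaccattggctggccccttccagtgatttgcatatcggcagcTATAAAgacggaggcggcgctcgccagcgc

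The letters TATAAA stood in the windows of Pcdh8 and Pcdh15, 2 of the 9 genes, and in 12.4% of 32851 windows of the same length. TGTTCT stood in 1 of the 9, Pcdh10, and in 16.1% of all windows. The ratio of observed to expected CpG was 0.419 for Pcdh7, 0.815 for Pcdh18, 0.883 for Pcdh10 and 0.673 for Pcdh8, against a median of 0.373 over all windows. Of the other 5 genes, the expressed Pcdh9, Pcdh17 and Pcdh19 had 0.713, 0.800 and 0.573, and Pcdh15 and Pcdh20, which lay near 0, had 0.378 and 0.267, the lowest values of the 9.

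The comparison the 2 libraries allow is between animals. Of the 49 protocadherins whose mean reached 1 RPKM, 4 (8.16%) were at least 2-fold apart, on the log2(RPKM + 0.1) scale, which understates changes of low genes. Over all 13647 genes at this level the share was 2.60%, and 4.85% of the 6336 genes between 1 and 10 RPKM. In that lower range 3 of 45 protocadherins (6.67%) were apart. This share leaves out Pcdhb9, the gene farthest apart, whose level in uterus 2 lifts its mean to 12.2 RPKM. The range thus depends on the difference being counted, so the share cannot be set against the background for the whole group. The 4 genes were Pcdhb9, higher in uterus 2, and Pcdhb6, Pcdhb15 and Pcdhgb8, higher in uterus 1. All belong to the clusters, and none of the 8 non-clustered genes was apart. Over all genes that reached 1 RPKM, 1.18% were at least 2-fold higher in uterus 2 and 1.42% in uterus 1, and between 1 and 10 RPKM these shares were 2.32% and 2.53%.

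Pcdhb9 held 58 reads in uterus 1 and 253 in uterus 2, a scaled ratio of 3.93 with an exact 95% interval of 2.94 to 5.32. This interval and those that follow cover counting error only. Pcdhb6 held 37 and 13 reads, a ratio of 0.317 (0.154 to 0.609), and Pcdhb15 held 34 and 14, a ratio of 0.371 (0.184 to 0.710). For Pcdhgb8 the reads were 77 and 28, and the ratio 0.328 (0.205 to 0.511). Pcdhb8, beside Pcdhb9 in the cluster, held 12 and 27 reads, and its ratio of 2.03 had an interval (0.993 to 4.39) that includes 1. Among other genes with many reads, Pcdh7 had a ratio of 0.964 (0.885 to 1.05) on 1038 and 1111 reads, the smallest numbers that give its values. Pcdh18 had 1.05 (0.864 to 1.27) on 204 and 237, and Pcdhgc3 had 0.864 (0.752 to 0.993). Pcdh1 had 0.727 (0.569 to 0.926) on 155 and 125 reads, and Pcdh12 had 0.680 (0.508 to 0.907) on 114 and 86.

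**Figure D3:**
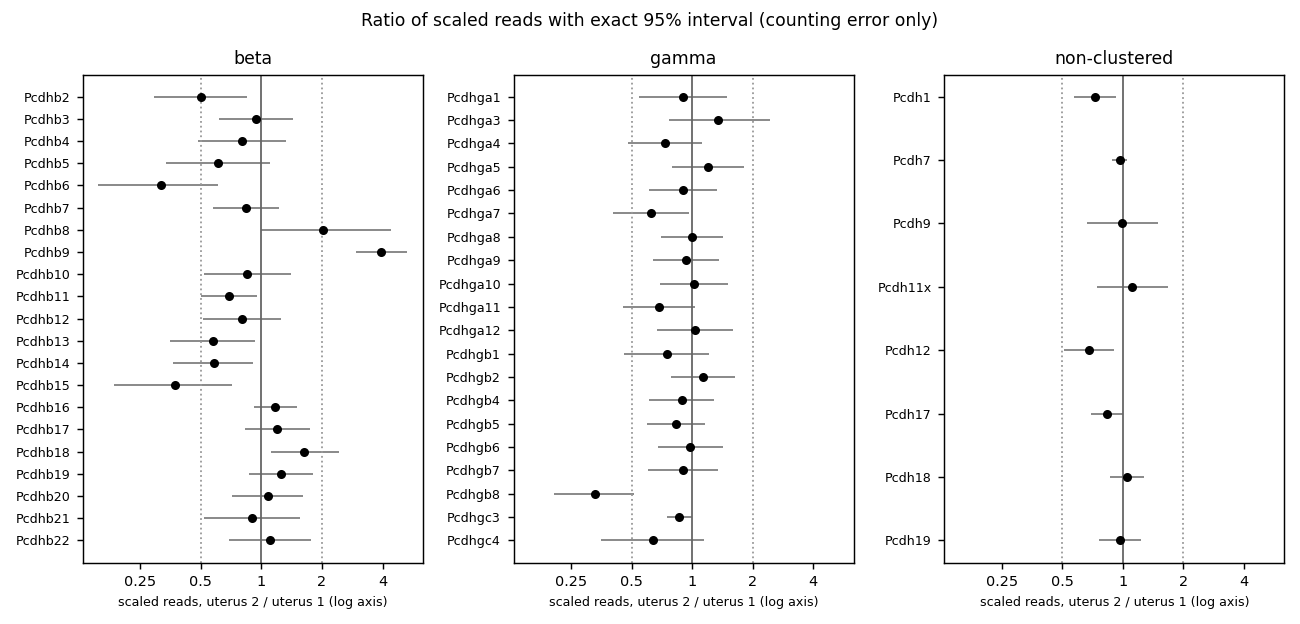
Ratio of scaled reads, uterus 2 over uterus 1, for the 49 protocadherins whose mean reached 1 RPKM (points) with exact 95% intervals for counting error (bars), on a logarithmic x axis with dotted lines at 2-fold. Pcdhb9 lies farthest right at 3.93, Pcdhb8 lies just past the 2-fold line at 2.03, Pcdhb6, Pcdhb15 and Pcdhgb8 lie on the left.

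The classes were compared by medians and by summed reads. The median log2 ratio was -0.23 for beta (8 genes higher and 13 lower in uterus 2), -0.15 for gamma (6 higher, 14 lower) and -0.05 for the non-clustered genes (2 higher, 6 lower). For all genes of at least 1 RPKM the median was 0.00067, with 6842 higher and 6805 lower. Summed beta reads gave a ratio of 1.07 (0.985 to 1.17), and 0.898 (0.820 to 0.983) without Pcdhb9, so this gene alone decides the side on which the beta sum falls. Gamma gave 0.859 (0.797 to 0.925), and 0.856 (0.784 to 0.935) without Pcdhgc3. Alpha gave 1.00 (0.733 to 1.37). Without Pcdh10, whose reads could not be recovered, the non-clustered genes gave 0.927 (0.871 to 0.987) and all protocadherins 0.939 (0.901 to 0.978). Pcdh7 and Pcdh9 entered both sums at their smallest possible reads, so these ratios and their intervals rest on that choice. Between 1 and 10 RPKM the SD of the log2 ratio was 0.64 over 20 beta genes, 0.43 over 19 gamma genes and 0.51 over all 45 protocadherins, against 0.58 over all genes. With Pcdhb9, which lies above 10 RPKM, the SD of beta was 0.79.

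Some clustered genes are so alike that short reads cannot always be placed. Counting every stretch of 50 bases in the first 2300 bases of a gene, the share found more than once in the NCBIM37 genome had a median of 15.5% over 14 alpha genes, 7.42% over 22 beta genes and 0.733% over 22 gamma genes. The read length is not given in the sources used here, so 50 bases is a choice. For Pcdhb9 the share was 11.7%, and 189 of its 263 repeated stretches were shared with Pcdhb7, which lay at 4.54 and 3.82 RPKM. Pcdhb6 (11.8%) shared most with Pcdhb8, Pcdhgb8 (9.996%) with Pcdhgb2, and Pcdhb15 (2.31%) with Pcdhb16. Pcdhb11 (18.5%) and Pcdhb12 (15.9%) had the highest shares of the beta cluster, and their log2 ratios were -0.53 and -0.31. Pcdhgc3 and Pcdhb1 held no repeated stretch of this length in the window. How reads with several matches were handled is not given in the sources used here, and their part in these levels was not tested.

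**Figure D4:**
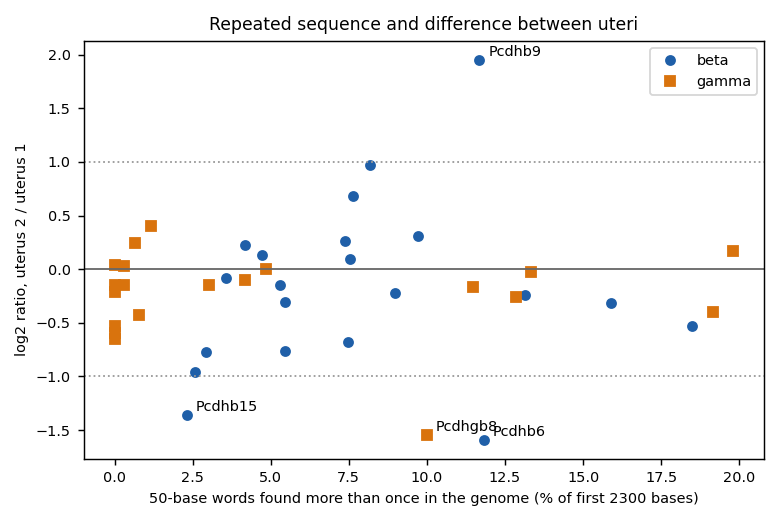
Log2 ratio of RPKM between the uteri (y axis) against the share of 50-base stretches found more than once in the genome (x axis, % of the first 2300 bases) for the beta (circles) and gamma genes (squares) whose mean reached 1 RPKM. The 4 named genes at least 2-fold apart lie at shares from 2.31% to 11.8%. All other genes, at lower and at higher shares, lie closer to 0, because the 4 were chosen by their distance from it.

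Most genes of the lists that act on or with protocadherins reached 1 RPKM in both uteri, as did 58.4% of all genes. Of the 13 genes that control the clustered promoters, 13 reached 1 RPKM in both uteri, with a median of 29.0 ± 0.921 RPKM. Ctcf, the factor that links these promoters to their enhancers, lay at 31.5 and 30.9 RPKM, the cohesin subunit Rad21 at 45.3 and 43.1 RPKM, and Smchd1, which silences clustered protocadherins, at 26.0 and 28.5 RPKM. The de novo methyltransferase Dnmt3b was lowest of the list at 2.29 and 2.82 RPKM. With a mean of 1 RPKM or more required, none of the 13 was 2-fold apart between the animals, against 2.60% of all genes, and neither was any gene of the partner, cleavage and other cadherin lists. Below that level Cdh26 lay at 0.451 and 0.0813 RPKM, Cdh23 at 0.278 and 0.0626 RPKM, and Cdh17 at 0 and 0.204 RPKM.

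All 19 partners inside the cell were detected, with a median of 27.8 ± 1.14 RPKM. Ctnnb1 (beta-catenin) was highest at 221 and 218 RPKM. The kinases Ptk2 and Ptk2b, which clustered protocadherins hold in check, lay at 30.0 and 27.3 RPKM and at 19.7 and 20.3 RPKM. The WAVE complex subunit Nckap1, which binds delta-2 tails, lay at 70.5 and 61.2 RPKM, and the PP1 catalytic subunit Ppp1ca at 120 and 123 RPKM. Dab1, a known partner of Pcdh18, lay at 4.63 and 3.71 RPKM, and Ret, a partner of alpha and gamma proteins, was lowest at 1.35 and 1.18 RPKM. Of the 8 shedding and cleavage genes 7 were detected, with the sheddase Adam10 highest at 43.5 and 36.8 RPKM and Aph1c lowest at 0.654 and 0.544 RPKM.

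Among other cadherins, Cdh11 of mesenchymal cells was far higher than any protocadherin, at 169 and 173 RPKM. Of 22 classical and related cadherins 8 were detected, a share of 36.4% against 58.4% of all genes, and their median of 0.437 ± 0.0907 RPKM was below that of the protocadherins. Among 9 giant and seven-pass cadherins, 6 were detected, led by Fat1 at 29.2 and 28.8 RPKM and Dchs1 at 21.9 and 16.7 RPKM, and Dchs2 was not analysed here. Pcdh7 thus lay level with Fat1 in both animals and above the epithelial cadherin Cdh1, at 26.4 and 24.9 RPKM.

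**Figure D5:**
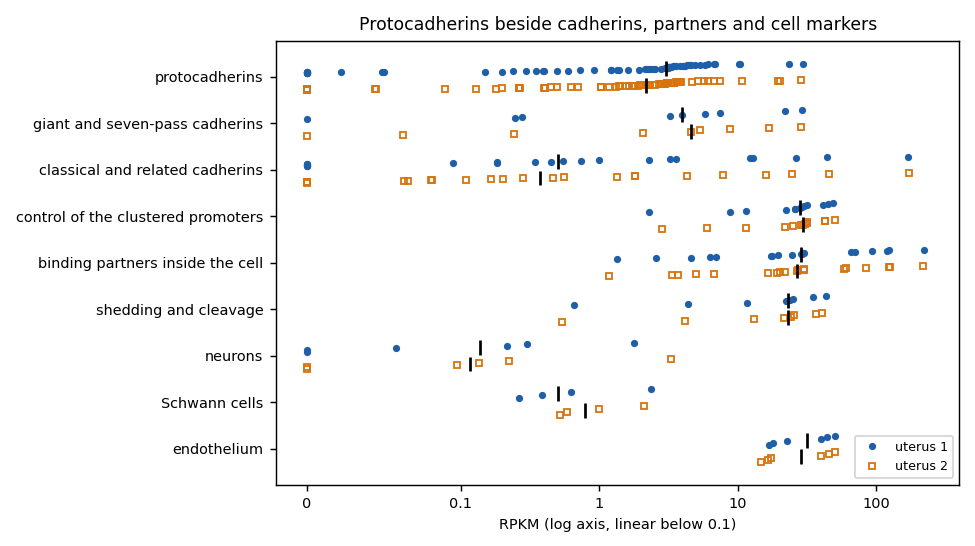
RPKM of all protocadherins and of the genes of 8 lists in uterus 1 (filled circles) and uterus 2 (open squares), with black bars at the medians (logarithmic x axis, linear below 0.1). Promoter control, partner and cleavage genes have medians between 23.0 and 29.7 RPKM, above the protocadherins, and neuron markers have medians below 0.2 RPKM.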

How the data were processed

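RNA was extracted with TRIzol, and libraries were made with the TruSeq RNA kit, per the labels' protocols. The authors deposited RPKM values per gene, per the series' design text. TopHat, edgeR and the mm9 build are named in the submitters' processing notes, without role or order. Strand use, counting and multi-mapped reads are not given in the sources used here. Starts were raised by 1 base, because deposited starts count from 0.

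The members and lists were chosen with earlier results of these data known. All members are named: those with a mean of at least 1 RPKM with both values, lower ones with their values, the others as listed at 0. Detected means 1 RPKM in both uteri. Ratios used a pseudocount of 0.1 RPKM. Reads were recovered as whole numbers that also give a whole model length, within 10% of a guide (the span for beta genes, the GENCODE M1 transcript where annotated, otherwise the median of the alpha or gamma class), and without such a length as the smallest possible (Pcdh7 and Pcdh9). For Pcdh10 the smallest whole reads need a model of 11797 bases, longer than its span of 4638, so none are given. The recovery and the repeat search were tested on simulated data. Intervals are exact binomial (Clopper-Pearson) at 95%, in scipy 1.17.1. The 2 libraries come from separate mice, per the design text. With 1 group there is no test and no p-value.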

Additional observations from a re-analysis of the deposited data

How the results depend on the processing

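Of 136 alternative values for classes, 106 stayed within their limit and 30 moved, and 1 of these, the median log2 ratio of beta, changed sign. The limit was the SD between the animals for medians and shares, 1.5 times for counts, and the distance from the middle to the end of the counting interval for log2 ratios. All 196 alternatives for the log2 ratios of the 49 genes whose mean reached 1 RPKM stayed within that distance, with Pcdhga8 moving from a log2 ratio of 0.0013 to -0.0043 on a TPM scale. The pseudocount still changed which genes were 2-fold apart. With 1 RPKM there were 3 in all, since Pcdhb15 moved to -0.94, and with 0.01 RPKM there were 5, since Pcdhb8 moved to 1.01. No paired analysis was possible because both libraries belong to the same group. Without either library, counts of detected genes stayed within 1.5 times. For medians and shares that step says nothing about stability, since with 2 libraries it cannot pass the SD, and a ratio between the animals has no value without 1 of them. At a threshold of 5 RPKM, detected genes numbered 1 for beta, 1 for gamma, 5 for non-clustered and 7 in all. On a TPM scale the medians were 0.597 (alpha), 7.34 (beta), 6.68 (gamma), 9.24 (non-clustered) and 6.20 (all), with 1 alpha gene detected and 1 alpha gene 2-fold apart. That scale multiplies RPKM by 2.37 (uterus 1) and 2.36 (uterus 2). These medians, counted among the values that moved, therefore changed with the unit, and a threshold of 1 TPM is lower than 1 RPKM. The alpha median was 0.329 RPKM without genes listed at 0. Per variable exon, an alternative chosen after seeing the data, the medians were 0.539 for alpha and 5.25 for gamma. Over genes whose mean reached 5 RPKM, the median log2 ratio was 0.22 for the 3 beta genes left, against -0.23, and -0.0524 in all, with 1 beta gene, 0 gamma genes and 1 gene in all 2-fold apart. Where the mean had to reach 0.1 RPKM, and also with no filter, 2 alpha, 1 non-clustered and 7 genes in all were 2-fold apart, and with no filter the median log2 ratio in all was -0.0454. Shares of the protocadherin total by reads were 1.82% (alpha), 23.9% (beta), 30.6% (gamma) and 43.7% (non-clustered), against 1.73%, 34.4%, 33.1% and 30.8% by RPKM. These read shares count Pcdh7, Pcdh9 and Pcdh10 at their smallest possible reads, and without Pcdh10 the non-clustered share was 43.6%. Depth limits the alpha genes, at 15 reads or fewer each.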

Other observations

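The beta genes differed between the animals by position, a pattern chosen after its values were seen and given without a test. Of the 14 expressed genes from Pcdhb2 to Pcdhb15, 12 were lower in uterus 2, with a median log2 ratio of -0.42, and Pcdhb8 and Pcdhb9 were the exceptions. Of the 7 genes from Pcdhb16 to Pcdhb22, 6 were higher in uterus 2, with a median of 0.22, and Pcdhb21 was the exception at -0.15. Summed reads of the 7 gave a scaled ratio of 1.1996 (1.05 to 1.37) on 380 and 506 reads, and those of the 14 gave 0.995 (0.892 to 1.11) on 633 and 699, with Pcdhb9 among them. All 5 C-type genes of the alpha and gamma clusters were lower in uterus 2, with 486 and 448 reads in sum, a scaled ratio of 0.830 (exact 95% interval 0.729 to 0.946, counting error only). Pcdhgc3 supplied 420 and 403 of these reads, and Pcdhac1 and Pcdhac2 had 8 and 6 and 5 and 3. Of the 5 single genes, only Pcdhgc3 had an interval that excludes 1 (0.752 to 0.993). Of the 49 protocadherins whose mean reached 1 RPKM, 67.3% were lower in uterus 2, against 49.9% of all genes at that level. The A-type and B-type gamma genes together gave a scaled ratio of 0.870 (0.794 to 0.952), so a lower sum in uterus 2 is not particular to the C-type. The genes share libraries and a locus, so they are not independent.

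Only 2 other genes of the table lie inside the span of the clusters on chromosome 18 (37089939 to 38001526), both between beta and gamma and on the opposite strand. Taf7, a subunit of the general transcription factor TFIID, lay at 3.95 (uterus 1) and 3.77 RPKM (uterus 2), within the range of the beta genes. Slc25a2, a mitochondrial ornithine carrier, lay at 0.388 and 0.873 RPKM.

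Pcdha9 held 15 reads in uterus 1 and 6 in uterus 2, and Pcdha2 held 1 and 6. Pcdh10 lay at 0.0221 and 0.199 RPKM, and its reads could not be recovered. These 3 of the 22 protocadherins with a mean below 1 RPKM (13.6%) were at least 2-fold apart, against 16.4% of all genes at that level. At these reads the sizes are not resolved.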
